A study of Mus musculus with 12 samples.

Results

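The peroxisome proliferator-activated receptor (PPAR) genes, their partner and coactivators and a pair of their targets were followed in whole kidneys of mice with and without the clock transcription factor BMAL1 in the renal tubule. The 8 genes are the receptors Ppara, Ppard and Pparg, the partner receptor Rxra, the coactivators Ppargc1a and Ppargc1b, and the targets Angptl4 and Pdk4. They were found by symbol among 38924 gene IDs of the count files, and each matched 1 ID. The set was chosen by measured values, because the rise of Ppard in knockout kidneys prompted it, so the genotype differences of the 8 genes are given below as descriptions without a test. Differences between the times of day, the interaction of genotype with time, and all genes outside the set were tested. The lists of other genes were also chosen with earlier results of these data known. Their counts of called genes, set against the share over all genes, are therefore descriptions too.

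PPARs are nuclear receptors that bind fatty acids and their derivatives. Each pairs with a retinoid X receptor on DNA, recruits coactivators such as PGC-1α, the product of Ppargc1a, and raises transcription of genes for fatty acid uptake, oxidation in mitochondria and peroxisomes, and fatty acid hydroxylation. The proximal tubule of the kidney draws much of its energy from fatty acid oxidation, and PPARα is known there as a regulator of that pathway. PPARδ is broadly expressed, and PPARγ is best known from adipocytes.

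RNA was measured in 12 poly(A)-selected libraries, 3 in each of 4 groups. Knockout mice (KO) were Bmal1lox/lox/Pax8-rtTA/LC1 animals on a C57BL/6J background, in which doxycycline at 2 mg/ml in the drinking water for 2 weeks from 8 weeks of age switched on Cre and deleted Arntl, the gene of BMAL1; the Pax8 promoter drives the transactivator along the renal tubule, so other kidney cells keep the gene. Controls were wild-type littermates (WT), and the labels do not say whether they carried any of the transgenes or received doxycycline. All were kept on a light and dark cycle of 12 hours each, and kidneys were taken at ZT4, 4 hours after light on, or at ZT16, in the dark phase. The labels do not say that the libraries come from separate animals, so p-values measure only the spread between these libraries.

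Gene counts per library ranged from 25628887 to 38043491, and mitochondrial transcripts took 16.3% to 22.4% of them in WT, 12.6% to 12.8% in KO ZT4, and 22.3%, 14.1% and 14% in KO ZT16. Arntl itself was at 13.8 to 20 CPM (read counts relative to a TMM-scaled library size) in the WT ZT4 libraries, 14.4 to 16.2 in KO ZT4, 8.63 to 11 in WT ZT16 and 12.3 to 15 in KO ZT16. These counts sum all exons in whole kidney, deleted or not, so they do not check the labels. KO ZT16 replicate 2 stood apart from its group: chi-square per degree of freedom was 191 and 169 against the other KO ZT16 libraries, and 4.71 to 45.2 in all other pairs within a group. Results that rest on it are given with and without it. In bulk tissue, fewer cells of a type and less RNA per cell cannot be told apart. The 8 proximal tubule markers summed to 10900 to 11900 CPM in WT ZT4, 10900 to 11100 in KO ZT4, 10100 to 11100 in WT ZT16 and 8750 to 10900 in KO ZT16. Markers of the tubule, the labelled tissue's main cell type, were thus abundant in all 12 libraries.

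The promoter sequences of the receptors show the DNA from which the 3 paralogs start. RefSeq windows on GRCm38.p6 were found for 6 of the 8 genes, with 9 start sites among them. The 250 bases before the start are printed 5′ to 3′ on the strand of the gene for the 3 receptors and for Pdk4, and capitals mark the receptor half-site AGGTCA on either strand where it occurs.
Ppara, chr15:85735526-85735775, + strand: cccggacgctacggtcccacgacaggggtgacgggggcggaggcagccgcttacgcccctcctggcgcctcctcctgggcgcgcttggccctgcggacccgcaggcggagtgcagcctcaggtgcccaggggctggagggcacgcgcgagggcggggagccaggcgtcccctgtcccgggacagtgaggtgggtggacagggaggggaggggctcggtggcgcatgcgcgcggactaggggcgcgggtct
Ppard, chr17:28232504-28232753, + strand: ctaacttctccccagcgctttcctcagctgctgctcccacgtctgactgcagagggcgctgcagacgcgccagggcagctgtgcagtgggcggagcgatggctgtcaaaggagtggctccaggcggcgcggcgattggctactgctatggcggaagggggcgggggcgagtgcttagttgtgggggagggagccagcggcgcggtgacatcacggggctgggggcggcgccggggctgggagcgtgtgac
Pparg, first start, chr6:115360894-115361143, + strand: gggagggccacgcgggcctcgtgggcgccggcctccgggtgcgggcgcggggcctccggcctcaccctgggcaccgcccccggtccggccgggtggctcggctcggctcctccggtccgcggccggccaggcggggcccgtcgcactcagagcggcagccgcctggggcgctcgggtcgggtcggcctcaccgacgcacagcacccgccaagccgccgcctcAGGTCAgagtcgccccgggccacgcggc
Pdk4, chr6:5496279-5496528, - strand: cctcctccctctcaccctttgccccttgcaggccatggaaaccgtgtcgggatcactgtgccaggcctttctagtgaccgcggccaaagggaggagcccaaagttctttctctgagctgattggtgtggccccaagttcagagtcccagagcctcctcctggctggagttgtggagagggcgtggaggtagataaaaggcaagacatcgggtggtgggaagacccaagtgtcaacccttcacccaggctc
The E-box CACGTG, the sequence that BMAL1 and its partners bind, was in none of the 9 windows and in 6.02% of 32851 mouse promoter windows of the same length. The D-box (TTATGTAA or TTACGTAA, either strand) was in none of the 9 and in 0.931% of all windows. The full PPAR element AGGTCANAGGTCA was also in none of the 9, and in 0.0335% of all. The half-site AGGTCA, which the full element contains, was in 14% of all windows and, among the 9, in the first and the second start of Pparg and the second start of Rxra. The absence of these letters says nothing about binding elsewhere in a gene.

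Of the 3 receptor genes, Ppard was the one whose KO and WT libraries did not overlap. It lies on chromosome 17 (GRCm38, 28232700 to 28301474, + strand) and shares no exonic base with another gene. In the WT ZT4 libraries it was at 26.7, 18.7 and 32.0 CPM, and in the KO ZT4 libraries at 101, 109 and 87.3 CPM. In WT ZT16 it was at 14.8, 13.9 and 13.0 CPM, and in KO ZT16 at 54.1, 123 and 121 CPM. Every KO library thus lay above every WT library of either time, and the lowest KO value was that of the library that stood apart. The fitted difference, KO minus WT on the log2 scale, was 1.94 ± 0.27 (SE) at ZT4, a 3.84-fold higher level, and 2.83 ± 0.28 at ZT16, a 7.13-fold higher level. Without KO ZT16 replicate 2 the ZT16 difference was 3.12. Ranked by this difference among the 16150 genes that passed the filter on low counts, Ppard was number 32 from the top at ZT4 and number 21 at ZT16.

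The KO libraries of Ppara, the PPAR best known from the proximal tubule, and of Pparg overlapped those of WT. Ppara was at 25.9, 21.9 and 36.1 CPM in WT ZT4 and at 31.1, 28.6 and 32.8 in KO ZT4. At ZT16 it was at 29.8, 20.3 and 26.5 CPM in WT and at 16.3, 29.5 and 26.7 in KO. The groups overlapped at both times, with fitted differences of 0.14 ± 0.22 and -0.08 ± 0.22 on the log2 scale; the ZT16 difference was 0.13 without KO ZT16 replicate 2. Pparg was low, with 45 to 106 counts per library. It was at 1.90 to 2.59 CPM in WT ZT4, 1.19 to 2.34 in KO ZT4, 2.23 to 2.95 in WT ZT16 and 1.45 to 3.63 in KO ZT16. Its groups overlapped too, at -0.40 ± 0.32 and -0.13 ± 0.31. The highest Pparg value was in KO ZT16 replicate 2, whose 8 adipocyte markers summed to 180 CPM against 55.2 to 105 in the other 11 libraries; without that library the ZT16 difference of Pparg was -0.57. The part of fat tissue in these values was not tested.

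**Figure D1:**
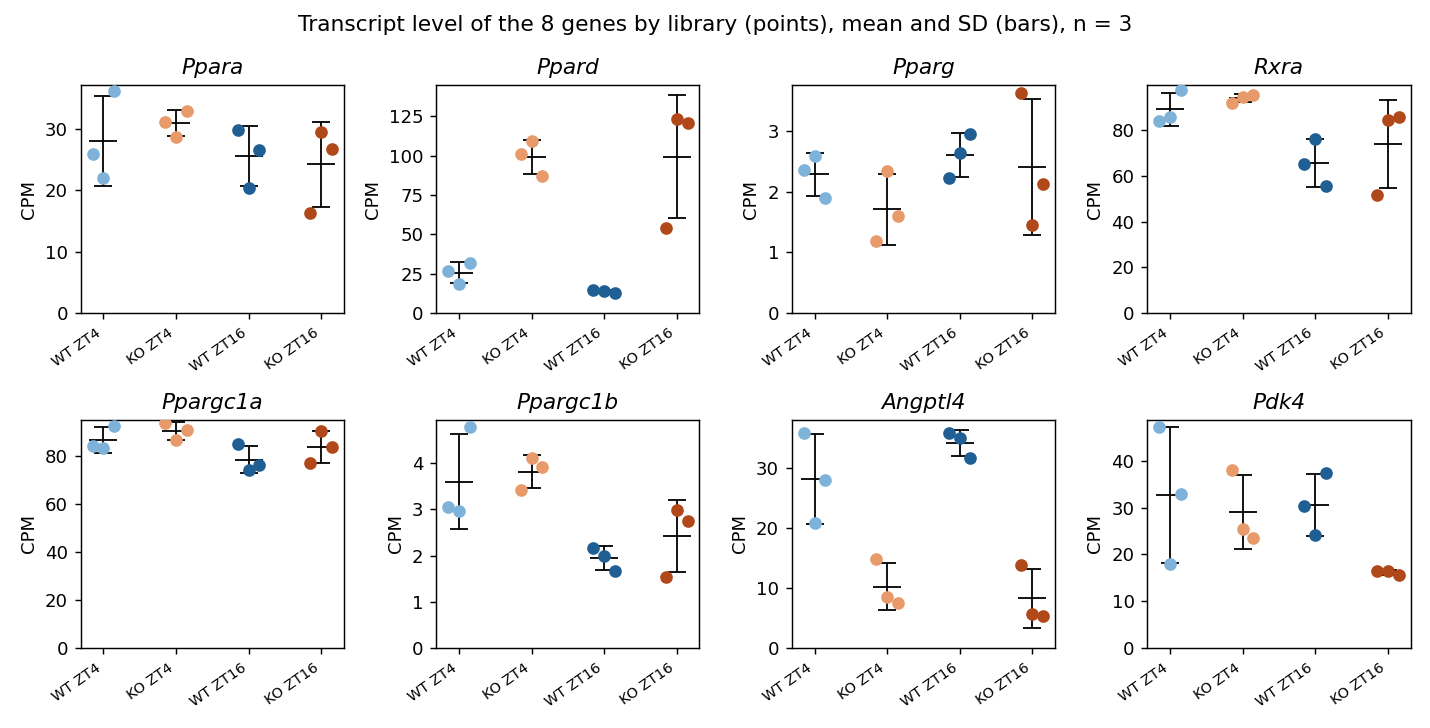
Transcript level of the 8 genes in CPM (vertical axis, from 0) in each of the 12 libraries (points), by group on the horizontal axis, with the group mean and SD (n = 3). The KO points of Ppard lie between 54.1 and 123 CPM, all above the WT points, and those of Angptl4 lie below the WT points at both times.

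Because the count of a gene grows with its length, the receptors were compared with each other as CPM per kilobase of exon. On that scale Ppara led in WT kidneys, at 7.29 ± 1.90 (SD, n = 3) at ZT4 and 6.65 ± 1.26 at ZT16. Ppard was at 3.43 ± 0.893 and 1.85 ± 0.116, and Pparg at 0.774 ± 0.120 and 0.882 ± 0.121. In KO kidneys the order of the first pair turned, with Ppard at 13.2 ± 1.48 at ZT4 and 13.2 ± 5.19 at ZT16 against 8.04 ± 0.561 and 6.30 ± 1.82 for Ppara. Ppard made up 29.7% ± 2.30 of the 3 receptors' summed level in WT ZT4, 60.4% ± 3.96 in KO ZT4, 19.9% ± 2.71 in WT ZT16 and 63.7% ± 5.97 in KO ZT16. The shares of single libraries ran from 18% to 32% in WT and from 56.1% to 67.6% in KO, with no overlap, and the library that stood apart held the lowest KO ZT16 share, 56.8%. With the longest transcript of each gene in place of its whole exonic length the shares were 42.5%, 72.9%, 30.2% and 75.2%, and Ppara still led in WT. The ratio of Ppard to Ppara within a library was 0.435 to 0.526 in WT ZT4, 1.36 to 1.95 in KO ZT4, 0.252 to 0.350 in WT ZT16 and 1.70 to 2.30 in KO ZT16.

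**Figure D2:**
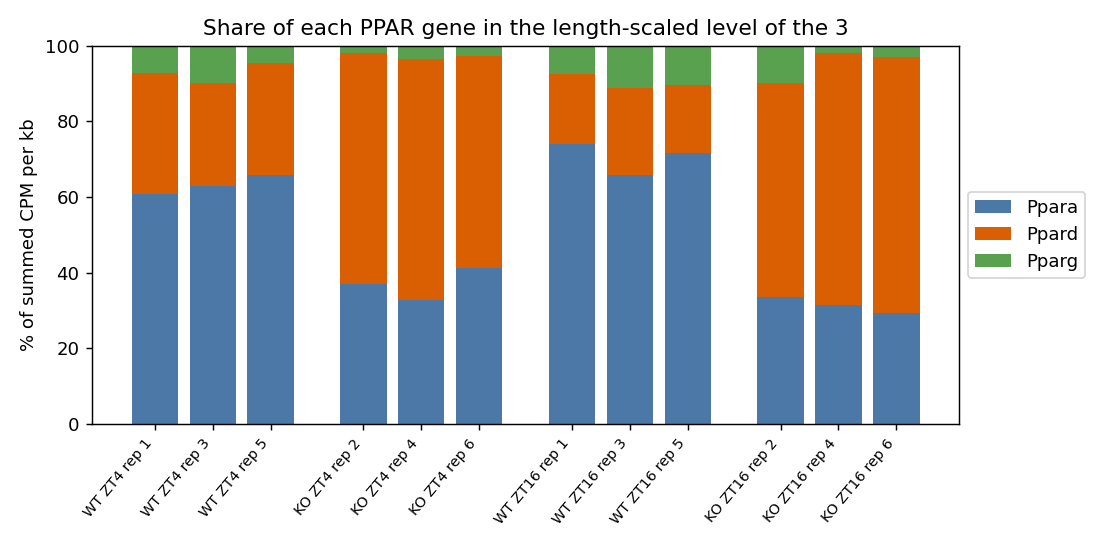
Share of Ppara, Ppard and Pparg in the sum of their CPM per kilobase of exon (vertical axis, percent, from 0) in each of the 12 libraries. Ppard takes 18% to 32% in the WT libraries and 56.1% to 67.6% in the KO libraries.

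Rxra, which encodes the partner with which each PPAR binds DNA, was at 84.0, 85.7 and 97.4 CPM in WT ZT4 and at 92.0, 94.4 and 95.2 in KO ZT4. In WT ZT16 it was at 65.1, 76.2 and 55.6 CPM, and in KO ZT16 at 51.8, 84.2 and 85.5. The genotypes overlapped at both times, with differences of 0.08 ± 0.17 and 0.17 ± 0.17, and of 0.36 at ZT16 without the library that stood apart. Per kilobase of exon Rxra had the highest mean of the 8 genes in every group, from 12.0 to 17.2, although its libraries overlapped with those of Ppargc1a in WT ZT16 and with those of Ppard and Ppargc1a in KO ZT16. With the longest transcript as the length, Ppard had the higher mean in both KO groups, at 26.6 ± 2.99 against 19.1 ± 0.343 for Rxra in KO ZT4 and 26.6 ± 10.5 against 15 ± 3.89 in KO ZT16, where their libraries overlapped.

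The other RXR genes were tested. Rxrb did not pass the test in either genotype comparison. Rxrg was called lower in KO at ZT4 (log2 difference -2.52 ± 0.48, edgeR quasi-likelihood test with Benjamini-Hochberg adjustment over all 16150 genes, adjusted p = 0.014). It was at 0.301 to 1.25 CPM in WT ZT4 and at 0.102 to 0.162 in KO ZT4, which is 3 to 7 counts per library. The ZT4 call was lost in 4 of 18 alternatives, and at ZT16 Rxrg differed by -0.73 ± 0.49 and was not called (adjusted p = 0.507 in edgeR). A gene is called throughout at an adjusted p under 0.05 in this test.

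The coactivator Ppargc1a, which drives mitochondrial biogenesis, differed little between the groups. It was at 84.1, 83.3 and 92.8 CPM in WT ZT4, 93.9, 86.7 and 91.1 in KO ZT4, 85.0, 74.4 and 76.5 in WT ZT16 and 77.1, 90.7 and 83.7 in KO ZT16. The genotypes overlapped at both times, and the differences were 0.06 ± 0.09 and 0.09 ± 0.09. Ppargc1b, its paralog, was at 2.97 to 4.78 CPM in WT ZT4 and 3.43 to 4.12 in KO ZT4. At ZT16 it was at 1.66 to 2.17 CPM in WT and at 1.54 to 2.99 in KO. These groups overlapped as well, at 0.08 ± 0.23 and 0.33 ± 0.26, and the ZT16 difference was 0.55 without KO ZT16 replicate 2.

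Angptl4 encodes a secreted inhibitor of lipoprotein lipase and is a target of all PPARs. It moved the opposite way to Ppard. It was at 35.9, 20.8 and 28 CPM in WT ZT4 and at 14.8, 8.51 and 7.49 in KO ZT4. In WT ZT16 it was at 35.9, 35.1 and 31.7 CPM, and in KO ZT16 at 13.9, 5.68 and 5.28. Every KO library lay below every WT library of either time, and KO ZT16 replicate 2 was the highest of its group. The level was 2.74-fold lower at ZT4 (-1.46 ± 0.35 on the log2 scale) and 4.15-fold lower at ZT16 (-2.05 ± 0.35), or -2.65 without that library. Among the 16150 genes Angptl4 was number 65 from the bottom at ZT4 and number 30 at ZT16.

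Pdk4 encodes a kinase that switches off pyruvate dehydrogenase and so spares glucose when fat is burnt. It was at 47.1, 18 and 32.8 CPM in WT ZT4 and at 38.1, 25.4 and 23.6 in KO ZT4, with wide spread and overlapping groups (-0.17 ± 0.28). In WT ZT16 it was at 30.3, 24.1 and 37.4 CPM, and in KO ZT16 at 16.4, 16.5 and 15.6. The KO ZT16 libraries agreed closely and all lay below the other 9 libraries, 1.89-fold under the WT ZT16 level (-0.92 ± 0.29, and -0.94 without KO ZT16 replicate 2). At ZT4 the sign rested on WT replicate 1, since the difference was 0.19 without it.

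By the call rule, 2 of the 8 genes, Ppard higher and Angptl4 lower, passed at each time, where 3.29% of all tested genes were called at ZT4 and 4.03% at ZT16; nothing is read from this, because the set was chosen from that comparison. At ZT4 Angptl4 passed in 11 of 20 alternative settings. The libraries of the genotypes did not overlap for 2 of the 8 at ZT4 (Ppard and Angptl4) and 37.7% of all genes, and for 3 at ZT16 (Ppard, Angptl4 and Pdk4) and 15.9% of all genes.

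**Figure D3:**
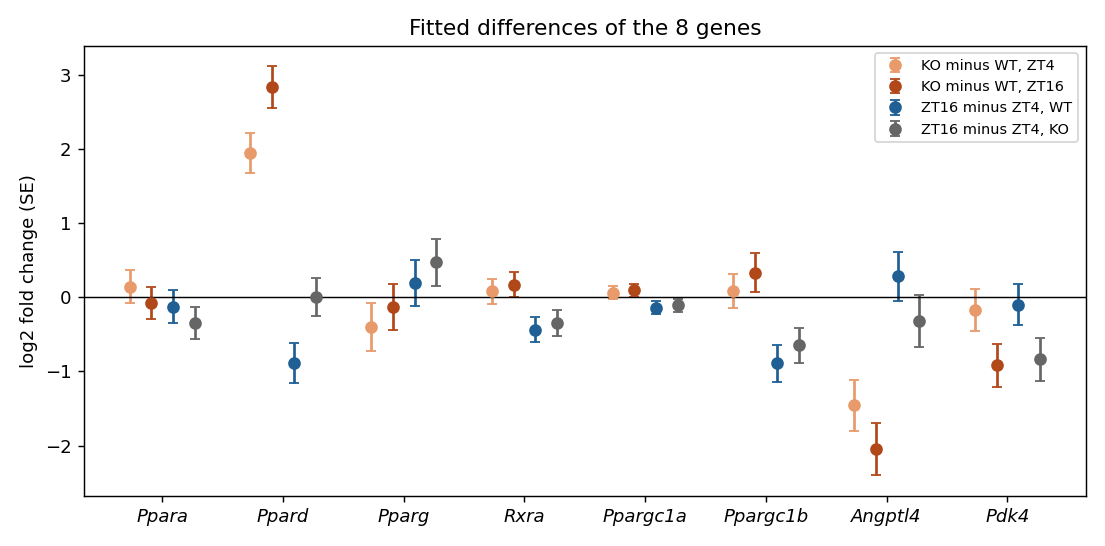
Fitted log2 fold changes (vertical axis) with their SE for the 8 genes, between the genotypes at each time and between the times in each genotype. Ppard stands at 1.94 and 2.83 and Angptl4 at -1.46 and -2.05 in the genotype comparisons, while Ppara, Rxra and Ppargc1a lie between -0.08 and 0.17.

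The set was not chosen by the change between times. The rise of Ppard that prompted it was, however, measured in these same 12 libraries. The time and interaction tests of Ppard are thus not independent of that choice. From ZT4 to ZT16 none of the 8 genes was called in WT, where 6.5% of all genes were, or in KO, where 10.5% were. At an unadjusted p under 0.05, 3 of the 8 passed in WT and 2 in KO in edgeR; DESeq2 called 2 and 1 of them and limma voom 0 and 0. Libraries of the times did not overlap for 3 genes in WT (Ppard, Rxra and Ppargc1b, all lower at ZT16), against 42.6% of all genes, and for 3 in KO (Rxra, Ppargc1b and Pdk4, all lower at ZT16), against 43.3%. In WT the fitted changes of Ppard and Ppargc1b were both -0.89, with SE 0.27 and 0.25 and adjusted p = 0.0671 and 0.0539 in edgeR. Both passed without KO ZT16 replicate 2 (adjusted p = 0.0011 and 0.00418 in edgeR), where Rxra, at -0.44 ± 0.17 and adjusted p = 0.117 with all libraries, also passed at -0.43 (adjusted p = 0.00443). In KO the change of Ppard was 0.00 ± 0.26 with all libraries and 0.29 without replicate 2 of KO ZT16, and neither was called. Pdk4 changed by -0.84 ± 0.29 in KO (adjusted p = 0.071 in edgeR) and -0.10 ± 0.28 in WT (adjusted p = 0.837).

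Whether the genotype difference depended on time was tested as an interaction, in which 0.0186% of all genes were called. None of the 8 genes passed; 1 of 8, Ppard, had an unadjusted p under 0.05 (0.0348, adjusted p = 1 in edgeR), and DESeq2 and limma voom called 0. The interaction of Ppard was 0.89 ± 0.38 on the log2 scale, that is, a larger KO excess at ZT16, and 1.18 without KO ZT16 replicate 2. The difference between 3.84-fold and 7.13-fold therefore did not pass after adjustment over all 16150 tested genes, and a dependence on time was not shown.

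In the wider set of PPAR targets, every gene called between the genotypes was lower in KO kidneys. Across 5 lists of fatty acid genes, which hold 67 genes of which 64 passed the filter (Fgf21, Ucp3 and Cyp4a32 did not), 17 were called lower and 0 higher at ZT4, and 19 lower and 0 higher at ZT16. Over all genes 1.66% were called lower at ZT4 and 1.96% at ZT16. Nothing is read from the excess over these shares, because the lists were chosen with earlier results of these data known. The median log2 difference of the 64 was -0.39 at ZT4 and -0.33 at ZT16, against 0.00 and 0.02 over all tested genes. Of the 22 genes called lower at either time, 14 were called at both. Without KO ZT16 replicate 2 the counts were 33 lower and 0 higher at ZT4, and 40 lower and 2 higher at ZT16; with only the 6 libraries compared in the fit they were 34 lower and 1 higher at ZT4 and 8 lower and 0 higher at ZT16. Summed markers of several cell types differed between the genotypes without overlap, in both directions. The 4 distal tubule markers were higher in KO, at 900 to 1070 CPM in WT ZT4 and 1120 to 1230 in KO ZT4, and at 941 to 1080 in WT ZT16 and 1120 to 1230 in KO ZT16. The 6 endothelial markers were lower in KO, at 428 to 457 CPM in WT ZT4 and 395 to 406 in KO ZT4, and at 407 to 430 in WT ZT16 and 374 to 404 in KO ZT16. So were the 8 macrophage and leukocyte markers, at 121 to 156 CPM in WT and 99.1 to 114 in KO. The 4 loop of Henle markers summed to 5540 to 6140 CPM in WT ZT4 and 4610 to 4740 in KO ZT4, and overlapped at ZT16, at 6490 to 7890 in WT and 5650 to 7330 in KO. At ZT4 the podocyte markers were higher in KO (235 to 250 CPM against 193 to 232). The stromal and smooth muscle markers were lower there (289 to 308 against 313 to 358), and both sums overlapped at ZT16. Of the 8 proximal tubule markers, whose sums are given above, 1 was called lower at ZT4 and 0 at ZT16. Of the distal tubule, endothelial, podocyte, and stromal and smooth muscle markers 0 were called between the genotypes at either time. Of the macrophage and leukocyte markers 1 was called lower at ZT4 and 1 at ZT16. Of the loop of Henle markers 1 was called lower at ZT4 and 0 at ZT16. Among single genes 37.7% did not overlap between the genotypes at ZT4 and 15.9% at ZT16. The part of cell composition and of the mitochondrial share in the targets' differences was not tested.

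Fatty acid uptake and activation had 3 of 12 genes called lower at ZT4 and 4 of 12 at ZT16. Slc22a5, the carnitine transporter OCTN2, was at 205 to 225 CPM in WT ZT4 and 115 to 127 in KO ZT4, and at 258 to 294 in WT ZT16 and 121 to 150 in KO ZT16. The groups were far apart, with log2 differences of -0.86 ± 0.09 (edgeR adjusted p = 0.000286) and -1.01 ± 0.09 (adjusted p = 6.64e-05). Slc27a2, a fatty acid transporter and acyl-CoA synthetase, was lower by 0.41 at ZT4 and 0.59 at ZT16 on the log2 scale. The scavenger receptor gene Cd36 fell by 0.83 at ZT4 (edgeR adjusted p = 0.0497) and differed by -0.64 at ZT16 without passing, and the ZT4 call was lost in 10 of 20 alternatives. The acyl-CoA synthetase genes Acsl3 and Acsl4 were called at ZT16, at -0.71 ± 0.11 and -0.38 ± 0.08. Acsl1 and Acsl5, of the same family, had higher means in KO at both times and were not called. Acsl1 was at 273 ± 40.7 CPM (SD) in WT ZT4, 347 ± 19.9 in KO ZT4, 222 ± 32.8 in WT ZT16 and 308 ± 31.6 in KO ZT16. Acsl5 was at 87.0 ± 2.50, 98.1 ± 5.37, 87.0 ± 3.53 and 110 ± 12.4 CPM in the same groups.

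In mitochondrial oxidation, 5 of 21 tested genes were called lower at ZT4 and 6 of 21 at ZT16. They held most of the carnitine shuttle: Slc25a20, the carnitine-acylcarnitine carrier, was at 52.0 to 55.6 CPM in WT ZT4 against 29.9 to 34.7 in KO ZT4, and at 62.5 to 74.2 in WT ZT16 against 35.2 to 39.8 in KO ZT16. Cpt2, the inner-membrane carnitine palmitoyltransferase, differed by -0.57 ± 0.06 at ZT4 and -0.56 ± 0.06 at ZT16, and Cpt1a, the outer-membrane enzyme, by -0.44 ± 0.08 and -0.50 ± 0.08. Crat, carnitine acetyltransferase, fell by 0.47 and 0.42. Acadl, the long-chain acyl-CoA dehydrogenase, was at 269 to 283 CPM in WT ZT4 and 171 to 185 in KO ZT4, and fell by 0.64 and 0.68 at the 2 times. Ucp2, an inner-membrane carrier, passed at ZT16 (-1.08 ± 0.23, edgeR adjusted p = 0.0217) and not at ZT4 (-0.76 ± 0.23, adjusted p = 0.107), and its interaction with time was not called.

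Peroxisomal genes had 3 of 15 called lower at ZT4 and 4 of 15 at ZT16, and all 15 were below 0 at ZT4. Ehhadh, the peroxisomal bifunctional enzyme, was at 975 to 1200 CPM in WT ZT4 and 582 to 640 in KO ZT4 (-0.78 ± 0.12, edgeR adjusted p = 0.00386). Pex11a, a peroxisome proliferation factor, was at 57.2 to 58.3 CPM in WT ZT4 and 43.9 to 44.8 in KO ZT4, and at 72.0 to 74.7 in WT ZT16 and 51.0 to 54.6 in KO ZT16. Acaa1b, a peroxisomal thiolase, fell by 0.64 at ZT4 and by 1.16 at ZT16; it shares 11.4% of its exonic bases with Dlec1 on the opposite strand and is close in sequence to Acaa1a, so its reads are uncertain.

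The ω-hydroxylases of the Cyp4a family had 4 of 5 tested genes called lower at both times. Cyp4a12a was at 116, 202 and 89.9 CPM in WT ZT4 and at 16.8, 19.6 and 15.7 in KO ZT4, a 7.81-fold lower level. In WT ZT16 it was at 128, 155 and 161 CPM and in KO ZT16 at 50.3, 24.2 and 20.8, a 4.66-fold lower level. Cyp4a12b fell by 2.58 and 2.14 on the log2 scale, Cyp4a10 by 1.11 and 0.81, and Cyp4a31 by 0.74 and 0.52. Cyp4a14, which is often used as a marker of PPARα activity, did not follow them: it differed by 0.49 ± 0.45 and 0.20 ± 0.44, with libraries that overlapped. Members of this family are close in sequence and can share reads, so the split between them is uncertain. Cyp4a12a is also known to be higher in male mice, and the labels do not give the sex of the animals; a part of sex in these values was not tested.

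Among lipid droplet and secreted targets, 2 of 11 tested genes were called lower at ZT4 and 1 of 11 at ZT16. Plin2, the droplet coat protein of most tissues, was at 91.9 to 104 CPM in WT ZT4 and 61.1 to 62.3 in KO ZT4 (-0.65 ± 0.10), and at 119 to 132 in WT ZT16 and 77.0 to 99.5 in KO ZT16 (-0.57 ± 0.10). Plin5, the coat protein of oxidative tissues, fell by 0.88 at ZT4, a call lost in 8 of 20 alternatives, and differed by -0.69 ± 0.20 at ZT16 without passing. Vnn1, a pantetheinase and PPARα target, was at 138 to 145 CPM in WT ZT4 and 79.7 to 89.7 in KO ZT4, but its test gave an adjusted p of 0.069 in edgeR.

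**Figure D4:**
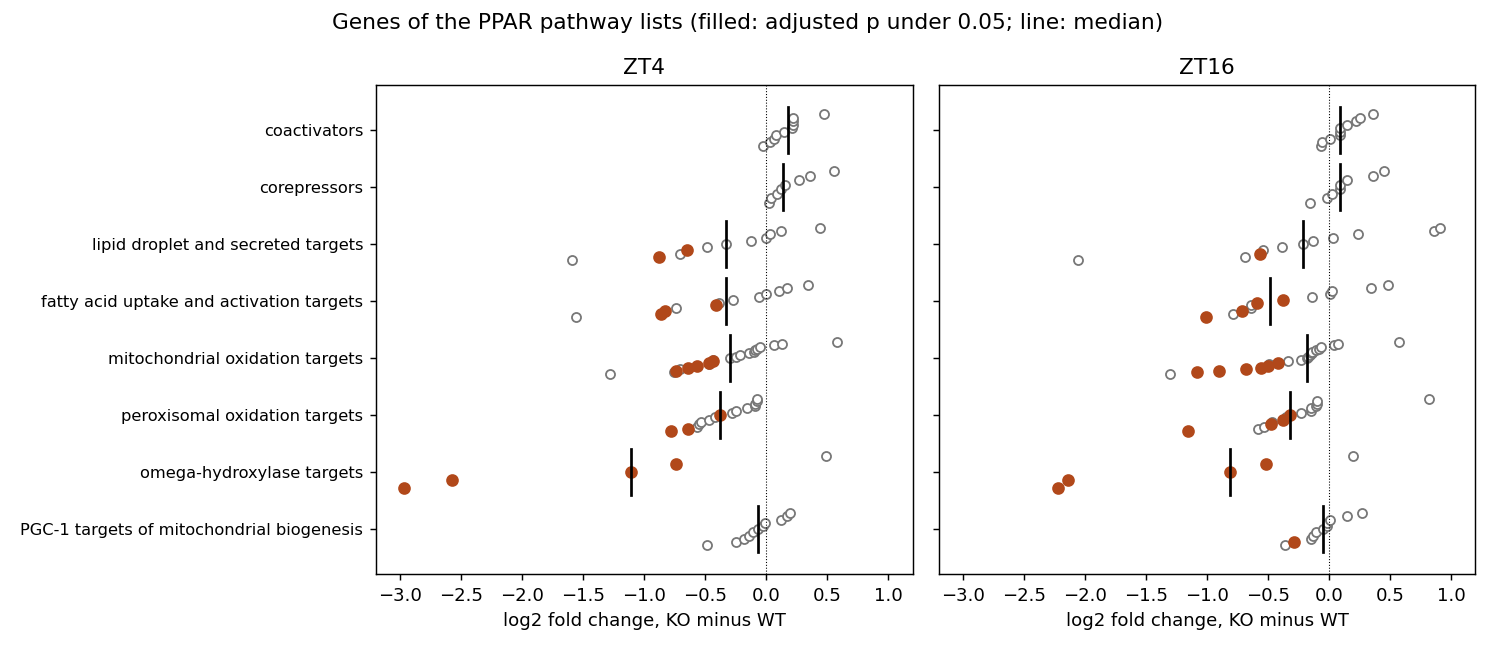
Log2 difference KO minus WT (horizontal axis) of each tested gene in 8 lists (vertical axis) at ZT4 and ZT16; filled points were called, open points were not, and the line is the list's median. In the 5 target lists all called points, 17 at ZT4 and 19 at ZT16, lie below 0. None of the 10 coactivators and 8 corepressors was called. Over all tested genes 3.29% were called at ZT4 and 4.03% at ZT16.

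Genes that act with the receptors include coactivators, many of which open chromatin, and corepressors, many of which close it. The coactivator list also holds Esrra, which is not a coactivator of this kind. Of 10 other coactivators 0 were called between the genotypes at either time (edgeR; 0 and 0 at an unadjusted p under 0.05, and 0 and 0 in DESeq2 and in limma voom), and their median differences were 0.18 and 0.09. Of 8 corepressors 0 were called (1 and 0 at an unadjusted p under 0.05; 0 and 0 in DESeq2 and in limma voom), with medians of 0.13 and 0.09. Crebbp, the acetyltransferase CBP, differed by 0.47 ± 0.25 at ZT4 without passing. Of 11 targets of PGC-1 in mitochondrial biogenesis 0 were called at ZT4 (1 at an unadjusted p under 0.05; 0 in DESeq2 and in limma voom). At ZT16 1 was called, Sod2, the mitochondrial superoxide dismutase, at -0.29 ± 0.07. Over all tested genes 3.29% were called at ZT4 and 4.03% at ZT16. Counts of 0 in lists this short are near those shares, and nothing is read from them.

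The families of the 2 target genes were compared as well. Angptl7 fell like Angptl4, from 7.41 to 13.5 CPM in WT ZT4 to 2.19 to 2.52 in KO ZT4 (-2.06 ± 0.25, edgeR adjusted p = 0.000611) and by 2.44 at ZT16. Lpl, the lipase that ANGPTL4 inhibits, was at 1120 ± 110 CPM in WT ZT4 and 930 ± 182 in KO ZT4 and was not called. None of the other pyruvate dehydrogenase kinases and phosphatases, 6 genes, was called between the genotypes in edgeR. At ZT4 and ZT16, 3 and 0 had an unadjusted p under 0.05 in edgeR. DESeq2 called 1 and 0, and limma voom 0 and 0. Over all tested genes 3.29% were called at ZT4 and 4.03% at ZT16.

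Among 10 other tested lipid-sensing or related nuclear receptors, Thra was the gene called between the genotypes. It encodes thyroid hormone receptor α. It was at 33.1 to 34.2 CPM in WT ZT4 and 71.0 to 78.9 in KO ZT4, and at 20.1 to 25.8 in WT ZT16 and 59.2 to 62.1 in KO ZT16. The groups did not overlap, and the differences were 1.15 ± 0.09 and 1.44 ± 0.09 (edgeR adjusted p = 2.73e-05 and 4.22e-06). It shares 5.70% of its exonic bases with the clock gene Nr1d1 on the opposite strand.

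From ZT4 to ZT16 every target gene that passed was higher at ZT16. In WT 12 of the 64 were called higher and 0 lower, where 2.87% of all genes were called higher, and in KO 16 were called higher and 0 lower, where 5.27% were. Plin2, Cpt2, Acadvl, Pex11a, Eci2, Decr2 and Fabp1, the liver-type fatty acid binding protein, were called in both genotypes. Fabp1 went from 0.564 to 0.950 CPM in WT ZT4 to 1.25 to 3.03 in WT ZT16 (1.37 ± 0.35, edgeR adjusted p = 0.0413). Ehhadh rose in KO by 0.73 ± 0.12 (adjusted p = 0.00922) to 880 to 1220 CPM. Acadvl shares 42.9% of its exonic bases with Dvl2 on the opposite strand, so its reads are uncertain. None of the 64 was called in the interaction (edgeR; 2 at an unadjusted p under 0.05, 0 in DESeq2 and in limma voom). These time counts depended on single libraries: leaving out 1 library at a time gave 0 to 33 called genes in WT, the lowest without WT ZT4 replicate 5 and the highest without KO ZT16 replicate 2, where 31 were higher and 2 lower. Without any one of the other libraries but KO ZT16 replicate 6 it was 1 to 6. In KO the range was 1 to 25, the lowest without KO ZT4 replicate 4 or replicate 6 and the highest without KO ZT16 replicate 6, and with only the 6 libraries compared it was 0.

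The 5 genes whose profile over the 12 libraries was most like that of Ppard were Fga, Igfn1, Npas2, Col6a6 and Gpr85. Likeness was measured as the root mean square difference of log2 CPM, each gene centred on its own mean, over the 13818 tested genes that averaged 1 CPM or more. Fga, the fibrinogen α chain, differed from Ppard by 0.266 on this scale, where the median gene differed by 1.27. It was at 34.5 ± 10.4 CPM in WT ZT4, 144 ± 13.5 in KO ZT4, 27.6 ± 1.45 in WT ZT16 and 143 ± 41.0 in KO ZT16. Fga is best known from liver, and the 5 liver markers summed to 419 to 511 CPM in WT and 568 to 709 in KO, with 2 called higher and 2 lower at each time. With a prior count of 0.5 Ikzf4 took the place of Col6a6, and without KO ZT16 replicate 2 the nearest were Fga, Gm5096, Igfn1, Bhmt and Col6a6. Npas2, a clock transcription factor related to CLOCK, came after Igfn1 at 0.444, with 9.77 ± 1.71, 45.2 ± 0.138, 2.94 ± 0.401 and 33.6 ± 7.86 CPM in the same groups.

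The profiles nearest to Angptl4 were those of Gda, Serpina1a, Nr1d2, Havcr1 and Pde6a, at 0.369 to 0.492 against a median of 1.04. Nr1d2, the clock repressor REV-ERBβ, was at 105 ± 11.6 CPM in WT ZT4, 26.4 ± 0.616 in KO ZT4, 104 ± 7.72 in WT ZT16 and 26.9 ± 6.38 in KO ZT16. For Pdk4 the nearest genes, Aldh1a2, Gm49339, Plaur, Cd33 and Igsf6, differed by 0.309 to 0.336. Pdk4 itself varied little, with a root mean square of 0.514 about its mean, so that likeness is weak, and without KO ZT16 replicate 2 Serpina3g, Layn and Lcp2 replaced Plaur, Cd33 and Igsf6.

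Genes next to Ppard on chromosome 17 were compared with it. Of 8 annotated genes within 100 kb 7 passed the filter. Scube3, which encodes a secreted signalling protein and starts 90.6 kb before Ppard, was at 2.72, 3.68 and 5.55 CPM in WT ZT4 and at 9.64, 10.2 and 9.19 in KO ZT4. At ZT16 it was at 1.13, 2.30 and 1.25 CPM in WT and at 3.97, 6.78 and 6.58 in KO. Its groups did not overlap at either time (1.28 ± 0.28, edgeR adjusted p = 0.0286, and 1.87 ± 0.31, adjusted p = 0.00452), and its ZT4 call was lost in 5 of 20 alternatives. Def6, a guanine nucleotide exchange factor gene that ends 4092 bases before the start of Ppard, differed by 0.47 ± 0.16 (adjusted p = 0.15) and 0.68 ± 0.17 (adjusted p = 0.0429 in edgeR), a call lost in 12 of 20 alternatives. Zfp523, Fance, Rpl10a, Tead3 and Fkbp5 were not called between the genotypes. None of the 9 tested neighbours of Angptl4 nor of the 1 of Pdk4 was called in these comparisons. Over all tested genes 3.29% were called at ZT4 and 4.03% at ZT16. A count of 0 among so few neighbours is near those shares.

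Widening the window to 1 Mb, a width chosen after these values were seen, gave 30 tested genes other than Ppard. Of them 2 were called higher and 0 lower at ZT4, and 3 higher and 0 lower at ZT16: Scube3, Def6 and Cdkn1a. Over all genes 1.63% were called higher at ZT4 and 2.07% at ZT16. Cdkn1a, the cell cycle inhibitor p21, starts 858 kb after Ppard and differed by 1.48 ± 0.16 and 1.58 ± 0.16. The median difference of the 30 was 0.19 at ZT4 and 0.08 at ZT16.

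**Figure D5:**
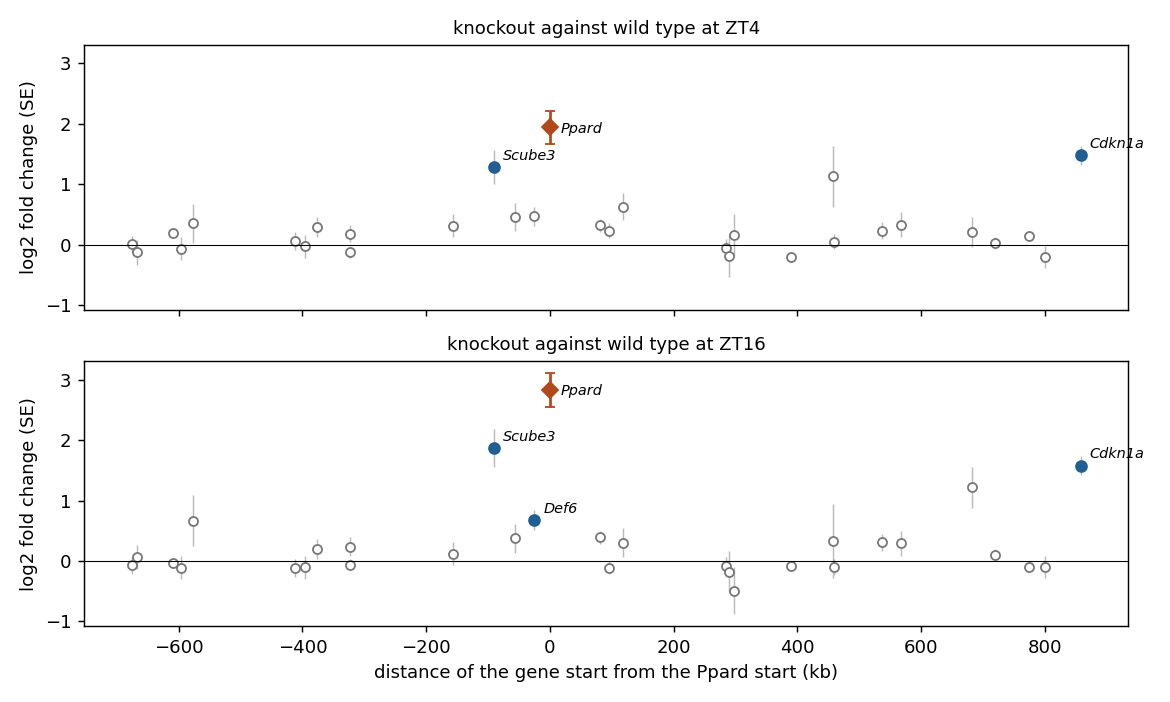
Log2 difference KO minus WT with its SE (vertical axis) of the 30 tested genes within 1 Mb of Ppard against the distance of their start from the start of Ppard in kb (horizontal axis), at ZT4 and ZT16; filled points were called, and the diamond is Ppard. Scube3 at -90.6 kb and Cdkn1a at 858 kb stand above the other genes at both times.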

How the data were processed

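Per the submitters' processing notes, the authors made the deposited read counts per gene with cutadapt 1.2.1, TopHat2 2.0.9, HTSeq 0.5.4p3 and GRCm38. How HTSeq treated strand and overlaps, and with which annotation, is not given in the sources used here. Counts of the 12 files (38924 gene IDs, 37607 named by GENCODE M21) were filtered with filterByExpr, which left 16150 genes, TMM-scaled and fitted together as 4 groups of 3 in R 4.3.3, with the quasi-likelihood test of edgeR 4.0.16. Lines for unassigned reads were left out (no feature 3.50% to 5.96% of a library). Log2 CPM used a prior count of 2. SE was calculated back from the test, as the absolute fitted log2 fold change divided by the square root of its F statistic. It is thus not a measure separate from the p-value. SD is over 3 libraries. The code was tested on simulated data.

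The members and lists were chosen with earlier results of these data known. Named besides the 8 genes are up to 4 genes per list and comparison with the smallest adjusted p. Genes within 100 kb of Ppard, Angptl4 or Pdk4 and the 5 closest profiles are named too. Acsl1, Acsl5, Cd36, Cpt1a, Crat, Ucp2, Lpl, Cyp4a14, Cdkn1a and Decr2 were added in some comparisons after their values were seen. Alternatives were RLE and upper-quartile scaling, other filters, DESeq2 1.42.0, limma 3.58.1 voom, adjusted p under 0.01, a replicate block, only the 6 libraries compared, and each library left out. Some genes of the lists are not reported here.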

Additional observations from a re-analysis of the deposited data

How the results depend on the processing

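Over 20 alternatives the genotype difference of Ppard ranged from 1.76 to 2.13 at ZT4 and from 2.65 to 3.12 at ZT16, and that of Angptl4 from -1.82 to -1.24 and from -2.65 to -1.82; these are the values on which the set was chosen. Counts of called genes, 531 and 651 between the genotypes at ZT4 and ZT16, 1050 and 1691 between the times in WT and KO, and 3 for the interaction, moved most. In that order DESeq2 called 1061, 1008, 2149, 3705 and 18 genes. An adjusted p under 0.01 left 207, 309, 209 and 136. Only the 6 libraries compared gave 2877, 200, 3557 and 36. Leaving out 1 library gave 228 to 2503, 380 to 5099, 220 to 5473, 181 to 3629 and 3 to 8; the highest value came without KO ZT16 replicate 2 in every comparison but KO over time, where it came without KO ZT16 replicate 6. The cause was not tested. Upper-quartile scaling called 398 higher and 796 lower in WT over time, against 463 and 587.

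Replicate numbers are shared between the times of a genotype, but same-numbered libraries did not deviate together (correlations -0.266 to 0.054). With a replicate block 229 genes were called over time in WT, 189 in KO and 1 in the interaction, and 0 and 1 of the 64 targets in WT and KO.

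The signs of some uncalled changes turned. For Ppard over time in KO the change was 0.02 with RLE scaling, 0.02 in DESeq2, 0.00 with only the 6 libraries, and -0.18 to 0.29 with 1 library left out. With 1 library left out, the change over time was -0.38 to 0.27 for Pdk4 and -0.28 to 0.09 for Ppara in WT, and -0.92 to 0.04 for Angptl4 in KO; the interaction was -0.03 to 0.08 for Ppargc1a, -0.02 to 0.47 for Ppargc1b, -0.02 to 0.28 for Rxra and -0.17 to 0.59 for Pparg.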
